A study of Mus musculus with 160 samples.

Results

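The collagen chain genes code for the polypeptide chains from which every collagen is assembled. They were taken here as the genes annotated as protein-coding whose symbol is Col followed by a chain type, the letter a and a chain number, in the GENCODE M21 mouse annotation. The rule found 44 such genes among 46078 genes in the count table, of which 21519 were protein-coding. All 44 are described, 11 of them coding for fibril-forming chains, 9 for FACITs (fibril-associated collagens with interrupted triple helices), 6 for type IV and 6 for type VI chains, 4 for transmembrane collagens, 3 for the types VIII and X, 2 for the multiplexins (types XV and XVIII), 1 for type VII and 2 for other collagens (Col26a1 and Col28a1).

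RNA was sequenced from 160 pools of 20 cells each, sorted from the aorta-gonad-mesonephros (AGM) region of mouse embryos, in 8 populations of 20 pools. All embryos carried a GFP reporter knocked into 1 allele of Gata3 (genotype Gata3-GFP +/-), so that no population came from embryos without the reporter, and each cell type was sorted into Gata3-GFP+ and Gata3-GFP- cells. At E10.5 these were endothelial cells (ECs), gated as Cdh5+ CD41- CD45-, and hematopoietic cells (HCs), gated by CD41 and CD45. For HCs the paper joins these markers by a slash, so cells positive for either marker may be included. At E11.5 the cell types were mesenchymal cells (MCs), gated by Pdgfrb, and cells of the sympathetic nervous system (SNS), gated by Ngfr. The pools of a population came from a few biological replicates, each of several pooled embryos, which are fewer than the pools (n) in any test and which the labels do not tie to single pools, so the p-values measure the spread between pools, part of which may be technical. Gata3 itself was higher in the Gata3-GFP+ pools of every cell type, by 2.66 ± 0.22 (SE) on the log2 scale in ECs, 2.89 ± 0.26 in HCs, 1.88 ± 0.22 in MCs and 2.10 ± 0.23 in SNS cells, with edgeR adjusted p-values of 9.61e-14, 3.37e-11, 8.98e-08 and 3.22e-08.

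Collagen chains wind around each other into a rod, which needs a glycine at the first place of every repeated Gly-X-Y unit, because no other residue fits at the core. Fibril-forming chains hold long unbroken runs of this repeat, are secreted as procollagens, trimmed and laid side by side as fibrils, whereas the interrupted chains of type IV join end to end into the sheets of basement membranes. In the AGM region, basement membrane lies under the endothelium of the dorsal aorta, and fibrillar collagen is made by the surrounding mesenchyme. Enzymes of the endoplasmic reticulum hydroxylate and fold the chains, proteases and lysyl oxidases finish the fibrils outside the cell, and integrins and discoidin domain receptors bind them.

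The repeat can be read from the genes. To show it, 1 exon of 54 bases is given from each of 6 genes that carried many of the collagen counts, read 5′ to 3′ on the coding strand of GRCm38 with the GENCODE M21 transcripts. Capitals mark the first codon of each of the 6 Gly-X-Y units, and any glycine at the other places is in lower case. Each exon is the gene's first inner coding exon of 54 bases in which all 6 of these are glycine codons (GGN), so that feature was fixed by the choice.
Col1a1, exon 8, chr11:94939904-94939957, + strand: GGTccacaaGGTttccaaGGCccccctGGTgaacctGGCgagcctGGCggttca
Col1a2, exon 8, chr6:4515481-4515534, + strand: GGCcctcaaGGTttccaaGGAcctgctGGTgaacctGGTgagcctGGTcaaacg
Col3a1, exon 6, chr1:45325360-45325413, + strand: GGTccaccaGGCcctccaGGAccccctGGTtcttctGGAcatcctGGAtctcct
Col4a1, exon 7, chr8:11245211-11245264, - strand: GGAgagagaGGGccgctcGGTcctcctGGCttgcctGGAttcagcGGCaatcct
Col4a2, exon 17, chr8:11413979-11414032, + strand: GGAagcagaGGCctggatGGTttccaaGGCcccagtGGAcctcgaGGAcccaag
Col18a1, exon 27, chr10:77067379-77067432, - strand: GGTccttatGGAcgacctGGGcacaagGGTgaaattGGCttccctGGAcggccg

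Over whole coding sequences the classes differed in how long the repeat ran. The longest unbroken run was 338 units in Col1a1, 339 in Col1a2 and 344 in Col3a1, and 337 to 344 in 9 of the 11 fibril-forming chains, the other two being Col24a1 with 216 and Col27a1 with 217. It was 40 units in Col4a1 and 66 in Col4a2, whose coding sequences held 22 and 24 separate runs of at least 5 units, and 30 units in both Col18a1 and Col15a1. Of the inner coding exons, 21 of 49 in Col1a1 and 24 of 49 in Col3a1 were 54 bases long, against 2 of 50 in Col4a1, 1 of 45 in Col4a2 and 3 of 39 in Col18a1. Col4a1 and Col4a2 lie head to head, and in the RefSeq annotation of GRCm38.p6 their starts are 21 bases apart. Upstream of the Col4a2 start, a GC box (GGGCGG, here read from the other strand) and a CCAAT box lie close together, shown with the motifs in capitals. On the opposite strand the same stretch lies past the start of Col4a1, within that gene.
Col4a2, motifs upstream of the start, chr8:11312757-11312777, + strand: CCGCCCgaggagctccCCAAT
The promoter window of Col4a2, which spans its start, held 3 GC boxes, 1 CCAAT box and no TATA box (TATAAA), counting both strands. Of all 32851 promoter windows of this length, 35.7% held a GC box, 37.4% a CCAAT box and 13.6% a TATA box. Of the 38 windows of the 35 collagen genes that the table holds, 60.5%, 34.2% and 13.2% did.

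Of the 160 pools, 7 failed the limits on read number and read makeup and a further 12 went against their label, 3 in each MC and SNS population. The MC pools had more counts of Ngfr than of Pdgfrb and the SNS pools the reverse. These were left out, which left 19 and 20 pools of Gata3-GFP+ and Gata3-GFP- ECs, 20 and 20 of HCs, 17 and 14 of MCs and 15 and 16 of SNS cells, with 1400824 to 16004756 counts on genes. Calls at E11.5 are also given with these pools kept, singly or as counts. In the pools used, the sorts differed in their defining markers. The mesenchymal list holds Pdgfrb and the sympathoadrenal list Ngfr, by which the 12 pools were left out. The separation of MCs from SNS cells was thus partly fixed by that choice, and these sums were not examined with the 12 pools kept. In summed level, 8 endothelial genes reached 3654 to 7830 CPM (counts scaled to library size) in ECs and at most 672 in the other cell types, and 10 hematopoietic genes 2857 to 9135 in HCs and at most 512 elsewhere. The 11 mesenchymal genes had 777 to 1669 CPM in MCs and at most 277 elsewhere, and 7 Schwann cell precursor and neural crest genes 529 to 1446 in SNS cells and at most 206.3 elsewhere. By their sum, the 9 sympathoadrenal genes did not separate SNS cells (433 to 3049 CPM) from the rest, since Gata3-GFP+ ECs had 277 to 726 and the highest Gata3-GFP+ HC pool 1755. They differed in how many had 10 counts in at least as many pools as not. This held for 9 of them in Gata3-GFP+ and 8 in Gata3-GFP- SNS cells, but for 1 in Gata3-GFP+ ECs. In the other populations it held for at most 4 (Gata3-GFP+ MCs). Of the Gata3-GFP+ EC pools, 1 stood apart, with 2675 CPM of the smooth muscle gene Acta2 against at most 438 in the other 18, while its summed endothelial markers (5996 CPM) were within their range (5810 to 7830). It had the highest level among these pools of Col1a1, Col1a2, Col3a1, Col5a1, Col6a1, Col6a3 and Col12a1, among others, and results that rest on it are given with and without it. A pool is a mixture, so fewer expressing cells and less RNA per expressing cell cannot be told apart. Reads of opposite strands cannot be told apart either where the strand was not recorded, which touches, among others, 6.07% of the exon bases of Col9a3 (shared with Tcfl5), 5.65% of those of Col4a3 and 22 bases shared by Col4a1 and Col4a2.

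The share of all gene counts that fell on the 44 collagen genes was highest in Gata3-GFP+ MCs, at 0.634% ± 0.0673 (SD, n = 17), ranging from 0.524% to 0.752% with a median of 0.639%. It was 0.415% ± 0.0758 in Gata3-GFP- MCs (n = 14), with a median of 0.404%, and 0.464% ± 0.0613 in Gata3-GFP+ ECs (n = 19), with a median of 0.459%. Gata3-GFP- ECs had 0.205% ± 0.0467 (n = 20) and a highest pool of 0.348%, below the lowest Gata3-GFP+ EC pool at 0.376%. SNS cells were the cell type in which the Gata3-GFP+ pools were lower, at 0.0861% ± 0.0191 (n = 15) against 0.135% ± 0.0242 (n = 16), with overlapping ranges of 0.0541% to 0.113% and 0.106% to 0.195%. The lowest shares were those of HCs, 0.052% ± 0.029 in Gata3-GFP+ and 0.0104% ± 0.00713 in Gata3-GFP- pools (n = 20 each). These shares are a description of the 44 genes as a sum and were not tested. With the pools against their label kept, the share was 0.561% in Gata3-GFP+ MCs, 0.136% in Gata3-GFP+ and 0.211% in Gata3-GFP- SNS cells, so that the SNS values rest on leaving them out.

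**Figure D1:**
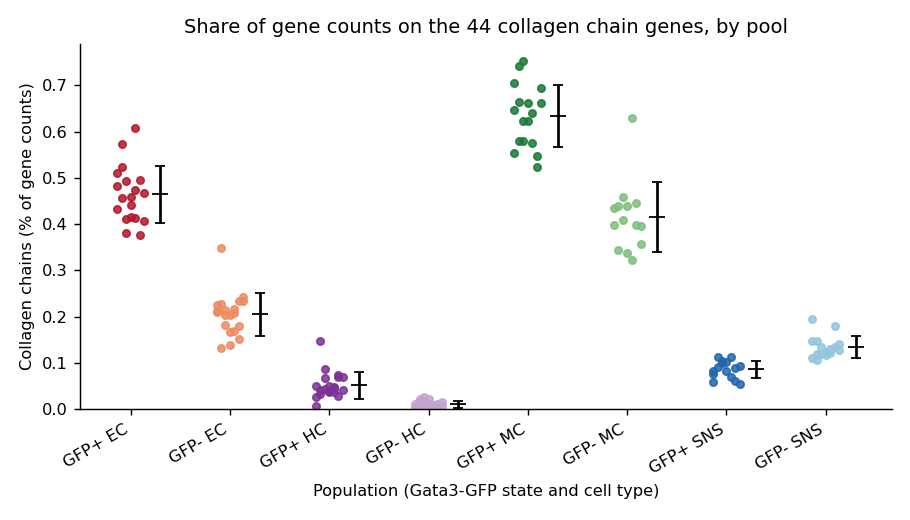
Share of gene counts on the 44 collagen chain genes (y axis, %) in each pool used (points) of the 8 populations (x axis), with mean ± SD in black beside the points. Gata3-GFP+ MC pools lie highest (0.524% to 0.752%), Gata3-GFP+ EC pools all lie above Gata3-GFP- EC pools, and HC pools lie lowest.

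The classes divided this share differently in each cell type. In ECs, type IV chains took 57.3% of the collagen counts of Gata3-GFP+ and 68.2% of those of Gata3-GFP- pools, and multiplexins 25.4% and 23.8%. Fibril-forming chains made up 14.2% in Gata3-GFP+ and 4.84% in Gata3-GFP- ECs. In MCs, fibril-forming chains held 69.3% and 70.6%, FACITs 13.3% and 11.6%, and type IV chains 12.7% and 8.94%. In SNS cells fibril-forming chains again led, with 58.5% in Gata3-GFP+ and 63.9% in Gata3-GFP- pools, followed by FACITs (15.6%) in the former and type IV chains (9.98%) in the latter. In HCs fibril-forming chains held 62.6% and 48.3% of a much smaller total.

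CPM divided by the annotated exon length in kilobases (CPM per kb) allow genes to be compared with each other. On this scale Gata3-GFP+ ECs were led by Col4a2 (188.5), Col4a1 (180.9), Col18a1 (165.7), whose C-terminal part is the source of endostatin, and Col5a2 (49.2), a type V chain that limits fibril width. Col23a1, a transmembrane chain, followed at 10.1, and Col15a1, the other multiplexin, was highest in Gata3-GFP- ECs at 9.84. Gata3-GFP+ MCs were led by Col1a1 (191.8) and Col1a2 (92.8), the chains of the main fibrillar collagen, and by Col3a1 (141.2), which makes type III collagen. Below these stood Col4a1 (56.5), Col4a2 (54.05) and the FACITs Col12a1 (43.2) and Col9a1 (29.6). In Gata3-GFP+ SNS cells the order began with Col9a3 (18.5), a chain of type IX collagen, and Col18a1 (15.2), and in Gata3-GFP- SNS cells with Col3a1 (21.7) and Col1a2 (19.7). If the pools against their label are kept, Col3a1 (22.7) and Col1a1 (20.8) lead in Gata3-GFP+ SNS cells, ahead of Col9a3 (15.8) and Col18a1 (13.3), so the order rests on leaving them out. In the Gata3-GFP- SNS cells Col3a1 (39.99) then came before Col1a1 (33.4) and Col1a2 (31.2). HCs did not exceed 13.3 CPM per kb for any collagen chain, which was Col3a1 in Gata3-GFP+ pools.

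Of the 44 chains, 12 had their highest mean level per kilobase in Gata3-GFP+ MCs and 12 in Gata3-GFP- MCs, 8 in Gata3-GFP+ and 2 in Gata3-GFP- ECs, 3 in Gata3-GFP+ and 4 in Gata3-GFP- SNS cells, and 1 and 2 in the HC populations. The chains highest in HCs were Col4a3 (0.188 CPM per kb), Col6a5 (0.0267) and Col10a1 (0.125), each with 10 counts in at most 4 pools. Among the smaller classes, Col6a1 led the type VI chains in MCs (9.53 CPM per kb in Gata3-GFP+ pools), and Col8a2, a chain of the hexagonal networks of vessel walls and cornea, reached 6.01 in Gata3-GFP- MCs. Col25a1, a transmembrane chain known from motor neurons and muscle, was highest in Gata3-GFP- SNS cells at 6.58, and Col26a1 in Gata3-GFP- MCs at 13.9. Type VII collagen, the anchoring fibrils of epithelia, was near the limit of detection, with Col7a1 at 0.0444 to 0.213 in the 8 populations, and Col28a1 did not exceed 0.0827. At least 10 counts in any pool were found for 37 chains in Gata3-GFP+ ECs and for 20 in Gata3-GFP- ECs. In at least as many pools as not, 10 counts were found for 18 and 13 chains. This limit is not scaled for depth, and the median gene counts of these pools were 3685639 and 2801408. In 7 chains (Col4a3, Col4a4, Col6a5, Col10a1, Col17a1, Col19a1 and Col28a1) at most 4 pools had 10 counts, and these were tested in no comparison, although the tally of highest levels includes them. They include the partner chains of Col4a5 in kidney basement membrane, the chain of growth plate cartilage and the chain of hemidesmosomes.

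**Figure D2:**
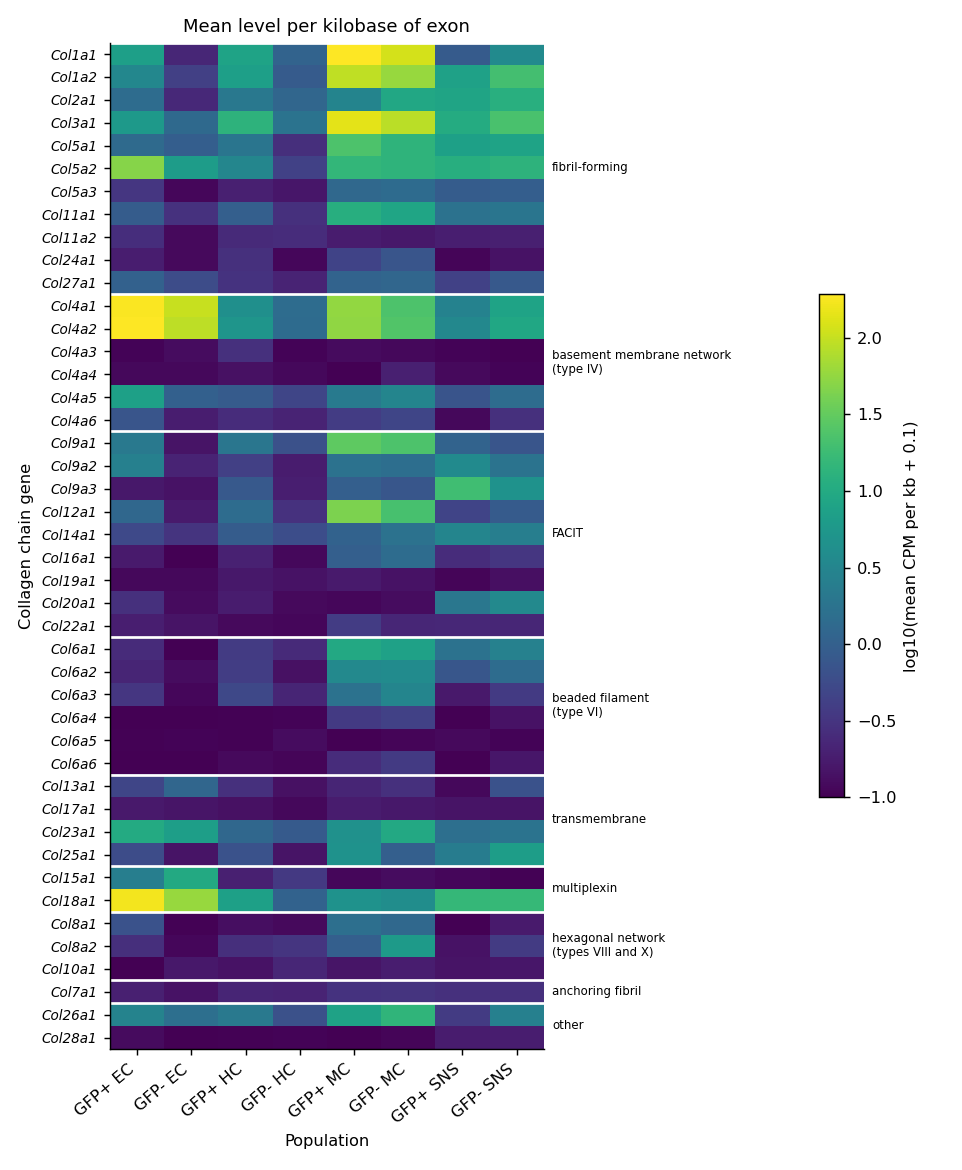
Mean level of each of the 44 collagen chain genes (rows, grouped by class) in the 8 populations (columns), as log10(mean CPM per kb + 0.1), from dark (low) to yellow (high). Col4a1, Col4a2 and Col18a1 are brightest in ECs, Col1a1, Col1a2, Col3a1 and Col12a1 in MCs, Col9a3 and Col20a1 in SNS cells, and no chain is bright in HCs.

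For the comparison of Gata3-GFP+ with Gata3-GFP- cells, each cell type was fitted in edgeR, and calls needed an adjusted p below 0.01 together with a difference of over 0.1 on the log2 scale. In ECs, 23 of the 44 chains passed the filter of 10 counts in 5 pools, of which 16 were higher and 1 was lower in the Gata3-GFP+ state, where 19.5% of all 15073 genes tested were higher and 16.5% lower (36% either way). Their median log2 fold change was 2.18, against 0.10 over all genes tested. A chain can pass the filter through the population where it is high, so these counts describe the tested chains and not the class as a whole. By class, 6 of 8 tested fibril-forming chains, all 4 tested type IV chains (Col4a1, Col4a2, Col4a5 and Col4a6) and 3 of 4 tested FACITs were higher.

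Col4a1 and Col4a2, the main chains of basement membrane, differed in ECs by less than any called fibril-forming chain. Col4a1 ranged over 1082, 1293 and 1870 CPM (lowest, median and highest pool) in Gata3-GFP+ ECs and over 477, 754 and 1338 in Gata3-GFP- ECs (log2 fold change 0.80 ± 0.08, SE, edgeR adjusted p = 1.74e-10). Col4a2 had 917, 1225 and 1561 CPM against 378, 590.2 and 1098, a log2 fold change of 1.04 ± 0.09 (edgeR adjusted p = 1.53e-12). The Gata3-GFP+ pools lay higher for both, and their ranges overlapped. Col4a5, an X-linked type IV chain, had 12.5, 48.1 and 89.9 CPM against 0, 5.96 and 15.4, a log2 fold change of 2.92 ± 0.29. Col18a1 reached 876, 1192 and 1471 CPM against 277, 408 and 670.5, with no overlap (1.46 ± 0.09, edgeR adjusted p = 1.16e-17). Col15a1 was the only chain called lower, with 0.891, 12.7 and 51.4 CPM against 23.99, 69.4 and 94.1 (-2.01 ± 0.32). The 2 multiplexins thus went opposite ways.

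Among the fibril-forming chains of ECs, Col5a2 stood out by its level. It ranged over 356, 461 and 639 CPM in Gata3-GFP+ ECs and over 32.1, 55.6 and 118.1 in Gata3-GFP- ECs (log2 fold change 2.89 ± 0.13, edgeR adjusted p = 1.94e-21), and no Gata3-GFP- pool reached the lowest Gata3-GFP+ pool. Its partner in type V collagen, Col5a1, had medians of 6.26 and 7.04 CPM and was not called (0.54 ± 0.44), with 75.4 CPM in the pool that stood apart by Acta2 and at most 18.1 in the other Gata3-GFP+ EC pools. Col5a2 and Col18a1 were the 2 chains whose EC pools did not overlap, which held for 3.03% of all genes tested. Col1a2 had 5.91, 26.02 and 259.6 CPM against 1.07, 3.36 and 12.1 (3.28 ± 0.38). Col1a1 and Col3a1 had low medians in both, 1.39 against 0.557 CPM and 23.5 against 12.1 CPM, with highest pools of 723 and 452 CPM in Gata3-GFP+ ECs.

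These highest pools were the same Gata3-GFP+ EC pool that stood apart by Acta2. With it, the log2 fold changes were 5.80 ± 0.96 for Col1a1 and 2.18 ± 0.53 for Col3a1, and without it 3.22 (edgeR adjusted p = 8.66e-05) and 1.43 (edgeR adjusted p = 0.0101), so that Col3a1 lost its call and 15 chains were higher. Col1a2 kept its call at 2.74, and Col12a1 moved by over 1.5 times without this pool, from a log2 ratio of means of 4.01 to 2.83. Col11a1 moved from 2.09 to 1.45 without a different Gata3-GFP+ EC pool. That pool had 76.6 CPM of Col11a1, against 24.04 in the pool that stood apart. Some low chains had few counts in Gata3-GFP- ECs: Col8a1 had 2 counts over the 20 pools, a ratio of summed CPM of 149.6 with a 95% counting interval of 41.1 to 1240. Col9a1 had 16 counts, a ratio of 37.7 (23.03 to 66.3), and such exact intervals cover counting error only, since amplified reads are not independent molecules. When the pools were scaled by their ERCC spike-in RNAs, the median gene of the EC comparison moved to -0.60 on the log2 scale. Col4a1 was then at 0.19 and Col4a2 at 0.46, neither called (edgeR adjusted p = 0.343 and 0.012), both still above the median gene.

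Markers of other cell types moved with the Gata3-GFP+ state of ECs. Of 7 smooth muscle and pericyte genes, 5 were tested and 4 higher, with a summed level of 73.6 to 3520 CPM (median 315.6) against 7.31 to 36.4 (median 18.9). Of 11 mesenchymal genes, 6 were tested and 4 higher (2.94 to 177.9 against 0 to 23.9 CPM). Of 10 genes of the nephric duct, 4 were tested and 3 higher (42.3 to 134.5 against 0.348 to 12.7 CPM, with Cdh16 at 0 in every Gata3-GFP+ pool). Of the 8 endothelial genes, 7 were higher and 1 lower (5810 to 7830 against 3654 to 5456 CPM). Of 9 sympathoadrenal genes 2 were tested and 2 higher (277 to 726 against 15.03 to 145.6 CPM, with Phox2a and Insm1 at 0 in every Gata3-GFP- pool). Of 10 hematopoietic genes, all tested, 4 were higher (220 to 512 against 51.03 to 179.8 CPM). The part of these cells in the collagen levels was not tested.

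The genes that make and handle collagen were also examined in ECs, in 5 lists. They are read here against the 19.5% of all genes that were higher and 16.5% lower. Of 19 genes for modification and folding, all tested, 9 were higher and 1 lower, led by P4ha3, a prolyl hydroxylase subunit (132.8 against 1.81 CPM, log2 fold change 6.08 ± 0.30), and with Plod1, a lysyl hydroxylase, at 1.93 ± 0.11. The glycosyltransferase Colgalt2 fell by 3.24 on the log2 scale. Of 19 genes for secretion, cleavage and cross-linking, 16 were tested and 8 higher, such as Lox, a lysyl oxidase (26.7 against 0.396 CPM), and Bmp1, the protease that removes the C-terminal propeptide (1.76 ± 0.16). Of 11 receptors, 7 were tested and 5 higher, Itgb1 among them (0.66 ± 0.07). Of 15 genes for breakdown and its inhibitors, 9 were tested and 6 higher, such as Ctsl (1.76 ± 0.09) and Timp2 (2.37 ± 0.26), and 2 were lower, Timp3 (-1.42 ± 0.21) and Mmp15 (-0.67 ± 0.16). Of 17 matrix partners, 13 were tested and 7 higher, with Fn1, fibronectin, at 2185 against 204.3 CPM (3.39 ± 0.11), and 1 was lower, the basement membrane linker Nid2 (-0.77 ± 0.23).

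**Figure D3:**
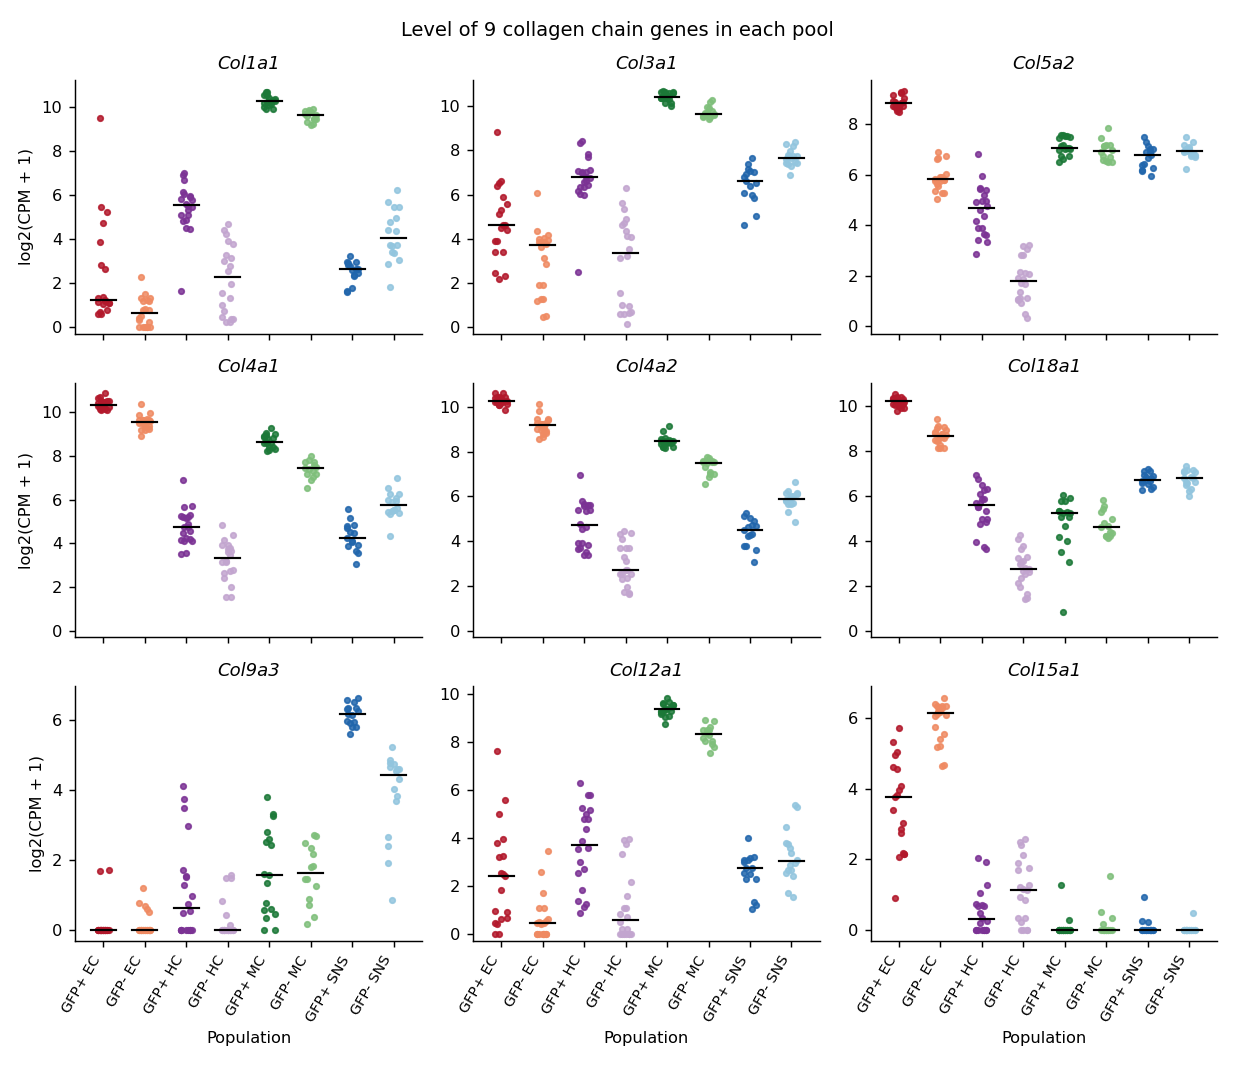
Level in each pool of 9 collagen chain genes (y axis, log2(CPM + 1), each panel with its own scale) in the 8 populations (x axis), with medians as bars. Col5a2 and Col18a1 separate Gata3-GFP+ from Gata3-GFP- ECs, 1 Gata3-GFP+ EC pool lies far above the others for Col1a1, Col3a1 and Col12a1, and Col9a3 separates the SNS populations.

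In HCs, 28 chains were tested, with 15 higher and 0 lower in the Gata3-GFP+ state in edgeR, where 17.1% of 16200 genes were higher and 9.53% lower (26.6% either way). Col15a1 was the 1 chain below 0 at an unadjusted p under 0.05 (-1.42 ± 0.63), and it did not pass the adjusted threshold (edgeR adjusted p = 0.0742). The median log2 fold change of the tested chains was 1.87, against 0.05 over all genes. Of 10 tested fibril-forming chains 7 were higher, of 4 tested type IV chains 2 and of 5 tested FACITs 2. In no chain were the pools of the 2 HC populations apart, which held for 0.0802% of all genes.

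Per kilobase, Col3a1 (13.3) and Col1a1 (7.99) had the highest collagen levels in Gata3-GFP+ HCs, followed by Col18a1 (7.28) and Col1a2 (6.99). Col3a1 ranged over 4.73, 108.9 and 345 CPM in Gata3-GFP+ and over 0.0985, 9.497 and 76.7 CPM in Gata3-GFP- HCs (log2 fold change 3.04 ± 0.52, edgeR adjusted p = 9.02e-06). Col1a2 had 4.20, 79.1 and 335 CPM against 1.49, 4.19 and 40.6 (3.20 ± 0.41), and Col1a1 had 2.10, 45.7 and 125.8 CPM against 0.177, 3.92 and 24.9 (3.01 ± 0.47). The medians lay well apart while the lowest Gata3-GFP+ pools fell inside the Gata3-GFP- range for each of them. Of the type V chains, Col5a3 was not tested and the other two rose, Col5a1 from 0, 0.781 and 8.52 to 0, 14.4 and 75.7 CPM (3.41 ± 0.56) and Col5a2 from 0.246, 2.51 and 8.26 to 6.30, 24.98 and 112.1 CPM (3.24 ± 0.38). Col18a1 rose from 1.63, 5.75 and 17.8 to 11.2, 46.9 and 119.4 CPM (2.92 ± 0.30, edgeR adjusted p = 8.89e-10). Col4a1 and Col4a2 differed less, by 1.66 ± 0.29 and 1.97 ± 0.34, with medians of 25.7 against 9.10 and 25.03 against 5.60 CPM. Col24a1, a rare fibril-forming chain, had 10 counts over the 20 Gata3-GFP- pools and a ratio of 14.96 (counting interval 7.86 to 31.99). Col6a2, Col24a1 and Col25a1 moved by over 1.5 times when 1 Gata3-GFP- pool was left out, to log2 ratios of means of 3.53, 4.40 and 4.17, in the same direction.

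Genes of other cell types were likewise higher in Gata3-GFP+ HCs. Of 11 mesenchymal markers 8 were higher, with a summed level of 8.41 to 277 CPM (median 152.7) against 0.354 to 103.3 (median 16.8), and of 7 smooth muscle markers 6 (17.9 to 1065 against 6.46 to 73.6 CPM). Endothelial markers were higher in 7 of 8 (108.2 to 672 against 31.2 to 181 CPM) and sympathoadrenal markers in 9 of 9 (1.497 to 1755 against 0.782 to 11.3 CPM). Nephric markers were higher in 6 of 10 (6 tested), coelomic epithelium markers in 3 of 6 (3 tested) and Schwann cell precursor markers in 3 of 7 (4 tested). Hematopoietic markers were lower in 8 of 10 and higher in 1 (2857 to 8174 against 6226 to 9135 CPM). Their part in the collagen levels of Gata3-GFP+ HCs was not tested.

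For the collagen-handling genes of HCs, the shares over all genes were 17.1% higher and 9.53% lower. Of 18 tested modification genes 10 were higher and none lower in edgeR, for instance Fkbp10, a collagen-binding foldase (19.4 against 2.13 CPM, 3.15 ± 0.44), and P3h4, a partner of lysyl hydroxylase (3.54 ± 0.48). Of 13 tested secretion and cross-linking genes 8 were higher and 1, Mia2, lower, with Loxl1, a lysyl oxidase, at 11.3 against 0.113 CPM (6.52 ± 0.55). Receptors were higher in 7 of 9 tested, among them Gp6, the collagen receptor of platelets and megakaryocytes (87.7 against 1.08 CPM, 6.20 ± 0.69), and Ddr1 (13.4 against 0.344 CPM, 5.43 ± 0.66). Of 14 tested breakdown genes 7 were higher, Mmp14 by 3.56 ± 0.39, and the 1 lower was Mmp8, a neutrophil collagenase (-3.74 ± 0.79). Of the matrix partners 12 of 17 tested were higher, Thbs1, abundant in platelets, at 1231 against 82.3 CPM.

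In MCs, 33 chains were tested, with 8 higher and 4 lower in the Gata3-GFP+ state, where 5.52% of 15226 genes were higher and 4.89% lower (10.4% either way). The median log2 fold change was 0.16, against 0.01 over all genes. The chains that rose were Col1a1, Col1a2, Col3a1 and Col5a1 of the fibril-forming class, Col4a1, Col4a2, the FACIT Col12a1 and the transmembrane Col25a1. Those that fell were Col2a1, the chain of cartilage fibrils, Col8a2, Col23a1 and Col26a1.

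Col4a1 had 303, 397 and 613 CPM in Gata3-GFP+ MCs against 92.7, 172 and 256 in Gata3-GFP- MCs (log2 fold change 1.29 ± 0.12, edgeR adjusted p = 1.36e-09). Col4a2 had 287, 349 and 556 CPM against 92.3, 179.7 and 215 (1.12 ± 0.11, edgeR adjusted p = 2.20e-09). These 2 chains were the ones whose MC pools did not overlap, as for 0.552% of all genes, and with the pools against their label kept 0 chains were apart. Type I collagen differed less and overlapped: Col1a1 had 938, 1231 and 1639 CPM against 570.3, 779.9 and 945 (0.71 ± 0.08), and Col1a2 787, 1138 and 1538 against 492, 708 and 1079 (0.64 ± 0.09). Col3a1 differed by 0.67 ± 0.08, Col5a1 by 0.79 ± 0.10 and Col12a1 by 1.04 ± 0.11. Col25a1 had the largest rise, from 1.71, 11.4 and 28.5 to 20.6, 60.9 and 110 CPM (2.36 ± 0.26). Col8a2 had the largest fall, from 1.11, 24.2 and 73.5 to 0, 2.67 and 10.8 CPM (-2.77 ± 0.51), and Col2a1 fell from 37.9, 71.1 and 222 to 0.64, 24.1 and 82.3 CPM (-1.63 ± 0.37). Col5a2, the chain with the clearest difference in ECs, had medians of 134.8 and 122.3 CPM in MCs and was not called (0.16 ± 0.13).

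The calls of Col1a1, Col1a2 and Col3a1 in MCs rest on leaving out the pools against their label, while Col5a1 did not lose its call. With these kept, 3 chains were higher (Col4a1, Col5a1 and Col25a1) and 1 lower (Col8a2). Col1a1, Col1a2, Col3a1 and Col12a1 then had log2 fold changes of 0.75, 0.71, 0.73 and 1.08 with edgeR adjusted p-values of 0.412, 0.114, 0.189 and 0.145, and Col4a2 was at 1.17 (0.0148). Col2a1, Col23a1 and Col26a1 were at -0.80, -1.01 and -0.77 (0.246, 0.0727 and 0.172). A fit of all 8 populations together, with its shared spread, also gave 3 higher and 1 lower. Of 7 smooth muscle markers 6 were higher in Gata3-GFP+ MCs (5270 to 11580 against 963 to 4949 CPM, with no overlap), 3 of 5 chondrogenic markers (3 tested) were lower (11.7 to 87.7 against 47.7 to 301 CPM), and of 11 mesenchymal markers 1 was higher and 3 lower. Their part was not tested.

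Among the handling genes of MCs, where 5.52% of all genes were higher and 4.89% lower, 2 of the 3 proteases that remove the N-terminal propeptide rose, Adamts3 by 2.66 ± 0.32 and Adamts2 by 2.03 ± 0.24, while Adamts14 was not called (-0.56 ± 0.89, edgeR adjusted p = 0.74). With Loxl1 (0.85 ± 0.12), 4 of 18 tested secretion and cross-linking genes were higher and none lower. Of 18 tested modification genes 4 were higher, P4ha3 among them (1.55 ± 0.16), and Plod2, the telopeptide lysyl hydroxylase, was lower (-1.08 ± 0.14). The receptors Itga1 (1.34 ± 0.30), Ddr1 (1.12 ± 0.22) and Itgb1 (0.55 ± 0.06) were higher, 3 of 7 tested. Of 13 tested breakdown genes 5 were higher, Mmp14, Mmp16 and Ctsl among them, and Fap was lower (-1.21 ± 0.28). Of the matrix partners 9 of 17 tested were higher, Postn by 1.66 ± 0.17, Fmod by 1.57 ± 0.39 and Fn1 by 1.34 ± 0.09. In a fit with the pools against their label kept, 2 secretion genes (Adamts3 and Adamts2), 1 modification gene, 1 receptor (Itgb1), 3 breakdown genes and 5 matrix partners were called higher, and Plod2 alone of these lists lower. Loxl1, P4ha3, Itga1, Ddr1, Fmod and Fn1 were then at 0.90, 1.60, 1.06, 0.19, 1.62 and 1.37, with edgeR adjusted p-values of 0.241, 0.0216, 0.118, 0.809, 0.0695 and 0.013.

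In SNS cells the direction was the opposite. Of 30 tested chains, 10 were lower and 1 higher in Gata3-GFP+ pools, where 5.48% of 15658 genes were lower and 4.94% higher (10.4% either way), and the median was -0.76 against -0.01 over all genes. Fibril-forming chains were lower in 4 of 9 tested, type IV chains in 3 of 4 and transmembrane chains in 2 of 3, and Col26a1 was also lower.

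The chain that rose was Col9a3. It had 47.3, 70.7 and 97.4 CPM in Gata3-GFP+ SNS cells and 0.833, 20.6 and 36.4 in Gata3-GFP- SNS cells, with no overlap (log2 fold change 2.03 ± 0.28, edgeR adjusted p = 2.59e-06). The other type IX chains were not called, with medians of 2.76 against 2.19 CPM for Col9a1 and 10.03 against 5.05 for Col9a2 (1.12 ± 0.37, edgeR adjusted p = 0.0295). Col1a2 fell from 160.8, 246 and 428 to a lowest of 37.8 and a median of 98.4 CPM, with every Gata3-GFP+ pool below the Gata3-GFP- range (-1.39 ± 0.14, edgeR adjusted p = 3.52e-09). Pools of the 2 SNS populations did not overlap for these 2 chains, as for 0.46% of all genes, and with the pools against their label kept 0 chains were apart. Col1a1 fell from 2.60, 15.99 and 74.7 to 2.05, 5.26 and 8.49 CPM (-2.23 ± 0.35), and Col3a1 from 118.5, 203 and 333 to 23.9, 98.6 and 198 CPM (-1.09 ± 0.21). Col4a1 fell from 19.4, 52.96 and 125.3 to 7.32, 17.8 and 46.7 CPM (-1.49 ± 0.22), and Col4a2 likewise (-1.45 ± 0.18).

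Col25a1 fell from 46.9, 85.9 and 123.5 to 4.11, 32.1 and 66.7 CPM in SNS cells (-1.51 ± 0.23), the reverse of its rise in MCs. Col26a1 fell from 3.51, 17.3 and 49.8 to 0.205, 2.19 and 4.97 CPM (-3.25 ± 0.39). Col13a1, a transmembrane chain of the neuromuscular junction, had 6 counts over 15 Gata3-GFP+ pools and 236 over 16 Gata3-GFP- pools, a ratio of summed CPM of 37.3 in favour of the latter (counting interval 16.9 to 102.7). Col4a6 had 11 counts over the Gata3-GFP+ pools, a ratio of 10.95 (5.92 to 22.5). Both rest on few counts, and leaving out 1 Gata3-GFP+ pool moved their log2 ratios of means to -5.99 and -4.40. Col18a1 in the SNS populations had medians of 103.2 and 108.2 CPM (-0.05 ± 0.12), and Col5a2 had lowest pools of 61.6 and 74.97 CPM and highest of 179.4 and 178.4 (-0.20 ± 0.13), neither called.

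Most of the falls in SNS cells also rest on leaving out the pools against their label. With these kept, 2 chains were called lower in place of 10 and 1 higher. Col25a1 (-1.63, edgeR adjusted p = 6.46e-05) and Col9a3 (1.96, 0.000892) were still called. Col1a1 (-0.69), Col1a2 (-1.10), Col3a1 (-0.83), Col4a1 (-1.06), Col4a2 (-1.21) and Col26a1 (-0.65) were not, at edgeR adjusted p-values of 0.744, 0.0604, 0.292, 0.158, 0.0567 and 0.639. ERCC scaling moved the median gene to 0.44, and Col3a1 was then at -0.56 (0.0571) and Col18a1 at 0.42 (0.0529). Mesenchymal markers were lower in 7 of 11 (10 tested) in Gata3-GFP+ SNS cells, at 11.7 to 55.8 against 41.3 to 208 CPM. Markers of the coelomic epithelium were lower in 3 of 6 (3 tested), at 0.218 to 6.72 against 0.933 to 294.5 CPM, and those of Schwann cell precursors in 3 of 7. Sympathoadrenal markers were higher in 8 of 9 and lower in 1 (927 to 3049 against 433 to 907 CPM). The part of these cells in the collagen levels was not tested.

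The handling genes of SNS cells stood beside 4.94% of all genes higher and 5.48% lower. Of 18 tested modification genes 4 were lower and none higher in edgeR, among them Serpinh1, the collagen chaperone (-0.50 ± 0.13), Plod2 (-0.63 ± 0.16) and Crtap (-0.61 ± 0.14). Of 16 tested secretion and cross-linking genes 4 were lower, such as Loxl1 (-3.07 ± 0.60) and Pcolce, an enhancer of propeptide removal (-1.48 ± 0.24). Of 8 tested receptors Ddr1 was higher (140.9 against 67.2 CPM, 1.07 ± 0.13) and Ddr2 lower. Of the other two lists, 10 tested breakdown genes had 1 higher (Ctsb, 0.81 ± 0.09) and 2 lower, and 14 tested matrix partners 1 higher (Fbln1, 0.72 ± 0.12) and 2 lower, with Postn at -1.52 ± 0.24. When the pools against their label were kept, the named modification, secretion and receptor genes lost their calls, for instance Serpinh1 (-0.44, edgeR adjusted p = 0.034), Loxl1 (-0.88, 0.606) and Ddr1 (0.95, 0.0102). Ctsb and Fbln1 were still called higher and Postn and Sparc lower.

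**Figure D4:**
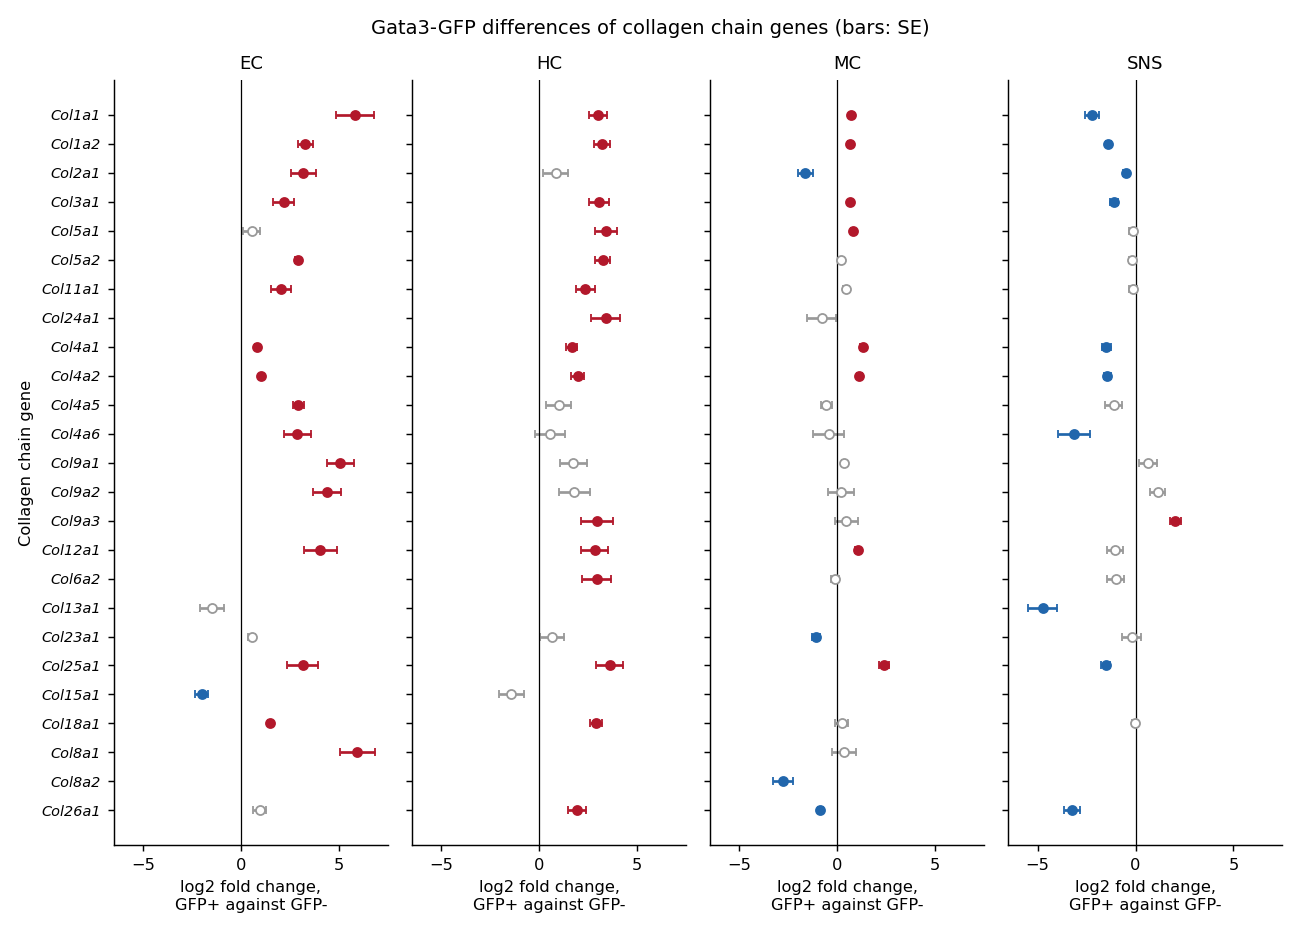
Log2 fold change of Gata3-GFP+ against Gata3-GFP- pools (x axis, bars SE) for the 25 collagen chain genes called in at least 1 cell type (y axis), in ECs, HCs, MCs and SNS cells. Filled points are called (red higher, blue lower), open points are tested and not called, and chains not tested in a cell type have no point. The ECs and HCs show rises almost alone, MCs both directions, and among the called chains SNS cells show falls except for Col9a3.

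Whether the Gata3-GFP difference was itself different between cell types was tested as an interaction. Between HCs and ECs, 32 chains were tested, and the difference was higher in HCs for 3 and lower for 2, where 14.1% of 17851 genes were higher and 8.6% lower (22.7% either way). Col5a1 (2.85 ± 0.70, edgeR adjusted p = 0.000815), Col13a1 (3.48 ± 0.97) and Col18a1 (1.49 ± 0.29, edgeR adjusted p = 2.21e-05) had the higher difference in HCs. Col8a1 (-5.72 ± 1.28) and Col9a1 (-3.37 ± 0.97) had the higher one in ECs. A chain can enter this test through 1 cell type alone. Col8a1 did not pass the filter within HCs, where it had 0.0340 and 0.0228 CPM per kb (Gata3-GFP+ first). Col13a1, at 0.185 and 0.0402 there, did not pass either, and it was not called within ECs. Col5a2, Col1a2 and Col3a1, which rose in both, had no called interaction, for example 0.38 ± 0.35 for Col5a2 (edgeR adjusted p = 0.425).

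Between SNS cells and MCs, 35 chains were tested, and 10 had a lower Gata3-GFP difference in SNS cells and 0 a higher one in edgeR, where 5.64% of 17309 genes were lower and 4.73% higher (10.4% either way). Among the fibril-forming chains these were Col1a1 (-2.97 ± 0.34), Col1a2 (-2.03 ± 0.17), Col3a1 (-1.75 ± 0.23) and Col5a1 (-0.94 ± 0.21). Col4a1 (-2.78 ± 0.26, edgeR adjusted p = 8.45e-13) and Col4a2 (-2.57 ± 0.21, edgeR adjusted p = 1.47e-14) had interactions of similar size. Col25a1 (-3.86 ± 0.35), Col12a1 (-2.11 ± 0.38), Col26a1 (-2.37 ± 0.38) and Col8a1 (-4.39 ± 1.15) completed the list. Col8a1 did not pass the filter within SNS cells, where it had 0.00185 and 0.0706 CPM per kb (Gata3-GFP+ first), and it was not called within MCs. With the pools against their label kept, 5 chains were lower and 2 higher: Col1a2, Col4a1, Col4a2, Col5a1 and Col25a1 were still lower, Col1a1, Col3a1, Col8a1 and Col12a1 were not called, and Col26a1 was at 0.11 (edgeR adjusted p = 0.949).

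Cell types were compared at the same stage by the mean of their 2 populations on the log scale. HCs against ECs at E10.5 had 32 tested chains, of which 7 were higher and 11 lower, where 26.6% of 17851 genes were higher and 24% lower (50.6% either way), with a median of 0.18 against 0.04. DESeq2 gave 3 higher chains in place of 7. The chains of the endothelial basement membrane were the lowest in HCs: Col4a1 at -5.88 ± 0.17, Col4a2 at -5.73 ± 0.19, Col18a1 at -5.27 ± 0.17 and Col15a1 at -5.04 ± 0.33. The first 3 did not overlap between any HC and any EC pool, as for 1.48% of all genes. The highest HC pools had 118.3, 124.5 and 119.4 CPM, and the lowest EC pools 477, 378 and 277. Col5a2 (-4.19 ± 0.19) and Col23a1 (-3.19 ± 0.32) were also lower. Type I chains were higher in HCs, Col1a1 by 1.58 ± 0.50 (edgeR adjusted p = 0.00493) and Col1a2 by 1.15 ± 0.27. For Col1a1 the HC medians were 45.7 and 3.92 CPM, Gata3-GFP+ first, against EC medians of 1.39 and 0.557. For Col1a2 the mean of Gata3-GFP- HCs (9.65 CPM) was below that of Gata3-GFP+ ECs (40.1 CPM), so the difference did not hold for every pair of populations. Without the EC pool that stood apart, Col1a1 was at 2.83 and Col3a1 passed the threshold (1.16, edgeR adjusted p = 0.00256, against 0.79 and 0.055 with it), making 8 higher.

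In the lists of handling genes, beside 26.6% of all genes higher and 24% lower, 14 of 19 tested modification genes were lower in HCs and 1 higher, with Serpinh1 at 57.4 against 332.2 CPM (-2.96 ± 0.11) and Fkbp10 at -3.76 ± 0.21. Receptors were higher in 6 of 10 tested and lower in 3, led by Lair1, an inhibitory collagen receptor of leukocytes (46.5 against 0.597 CPM, 6.26 ± 0.31). Secretion and cross-linking genes were higher in 3 and lower in 7 of 18 tested, breakdown genes higher in 5 and lower in 6 of 14, and matrix partners higher in 6 and lower in 8 of 17, the last including Hspg2, perlecan (-5.57 ± 0.19), and Nid1 (-5.33 ± 0.21).

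SNS cells against MCs at E11.5 had 35 tested chains, of which 5 were higher and 23 lower, where 20.5% of 17309 genes were higher and 19.7% lower (40.2% either way), with a median of -2.04 against 0.01. All 5 tested type VI chains, all 4 tested type IV chains and 7 of 10 fibril-forming chains were lower in SNS cells. Col1a1 was at -6.49 ± 0.20, with the highest SNS pool at 74.7 CPM and the lowest MC pool at 570.3. Col12a1 (-5.79 ± 0.21), Col9a1 (-5.03 ± 0.23), Col3a1 (-2.91 ± 0.12), Col1a2 (-2.61 ± 0.09) and Col11a1 (-2.53 ± 0.13) were likewise apart in every pool. The chain that was higher in every SNS pool was Col20a1, a FACIT, with medians of 7.42 and 17.4 CPM in SNS cells and 13 counts over all 31 MC pools, a ratio of 143.6 (counting interval 83.8 to 270.1). These 7 chains did not overlap, as for 1.79% of all genes, and with the pools against their label kept 0 chains were apart. Col9a3 (3.59 ± 0.32), Col18a1 (1.84 ± 0.17), Col25a1 (0.95 ± 0.17) and Col2a1 (0.90 ± 0.20) were the other chains higher in SNS cells. Of the lower chains, Col6a4, Col6a6 and Col8a1 moved by over 1.5 times without 1 Gata3-GFP- SNS pool, to log2 ratios of means of -8.51, -3.52 and -6.56.

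With the pools against their label kept, the same contrast was smaller: Col1a1 at -2.26 and Col12a1 at -2.20 were still lower and Col20a1 at 2.05 and Col9a3 at 1.80 higher, while Col25a1 (0.57) and Col2a1 (0.45) lost their calls, leaving 3 higher and 19 lower. ERCC scaling moved the median gene to 0.70 and gave 8 higher chains. Of the handling genes, beside 20.5% of all genes higher and 19.7% lower, 14 of 19 tested for modification were lower and 2 higher, 12 of 18 tested for secretion and cross-linking lower and none higher in edgeR, such as Lox (-5.02 ± 0.33) and Adamts2 (-5.07 ± 0.34). The 2 discoidin domain receptors went opposite ways, Ddr2 at 5.69 against 258.8 CPM (-6.17 ± 0.26) and Ddr1 at 102.8 against 28.8 CPM (1.92 ± 0.13), among 3 receptors higher and 5 lower of 9 tested. Breakdown genes were higher in 4 and lower in 7 of 13, and matrix partners higher in 1 and lower in 11 of 17, with Dcn, decorin, at -5.91 ± 0.41. In a fit that kept the pools against their label, Lox, Adamts2, Ddr2 and Dcn were called lower and Ddr1 higher at smaller differences (-2.74, -2.77, -2.33, -3.02 and 1.06), while 11 modification genes, 10 secretion genes, 4 receptors, 7 breakdown genes and 9 matrix partners were lower.

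MCs against ECs compared the 2 cell types with the most collagen, although their stage and cell type cannot be told apart. Of 37 tested chains, 23 were higher in MCs and 5 lower, where 24.8% of 19859 genes were higher and 22.9% lower (47.8% either way), with a median of 3.56 against 0.01. Fibril-forming chains were higher in 8 of 11, all 5 tested type VI chains and 6 of 8 tested FACITs were higher, and both multiplexins were lower. Col1a1 was at 7.37 ± 0.44, and at 8.58 without the EC pool that stood apart, Col12a1 at 6.79 ± 0.42 and 7.37, and Col6a1 at 7.68 ± 0.53 and 9.66. Col9a1 (6.27 ± 0.40), Col1a2 (6.20 ± 0.24) and Col3a1 (5.41 ± 0.32) were higher in every MC pool than in any EC pool, also with that pool included, and Col18a1 was lower in every MC pool (-4.51 ± 0.18), as for 2.12% of all genes. Col15a1 had 14 counts over the 31 MC pools, a ratio of 353.8 in favour of ECs (counting interval 210.6 to 647.6). Col4a1 (-1.90 ± 0.14) and Col4a2 (-1.82 ± 0.15) were lower in MCs. Col5a2 was not called (-0.32 ± 0.14), with Gata3-GFP+ ECs above and Gata3-GFP- ECs below the MC range by their medians. Col6a4 and Col6a6 had 2 counts each over all 39 EC pools, with ratios of 140.2 (38.5 to 1163) and 101.7 (27.8 to 845.2).

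Of the handling genes in this contrast, beside 24.8% of all genes higher and 22.9% lower, 12 of 19 tested for modification were higher and 2 lower, and 11 of 18 for secretion and cross-linking were higher and 1 lower. Pcolce was at 417.4 against 9.86 CPM (5.74 ± 0.29) and Loxl1 at 121.5 against 1.55 CPM (7.36 ± 0.40). Receptors were higher in 4 of 11 tested and lower in 4, Ddr2 rising by 7.25 ± 0.39 and Itga2, an integrin subunit of platelets and epithelia, at -6.57 ± 0.56. Of 15 tested breakdown genes 7 were higher and 4 lower, and of 17 matrix partners 13 were higher and 2 lower, the lower ones being Hspg2 (-2.91 ± 0.17) and Nid1 (-0.83 ± 0.16), both components of basement membrane.

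**Figure D5:**
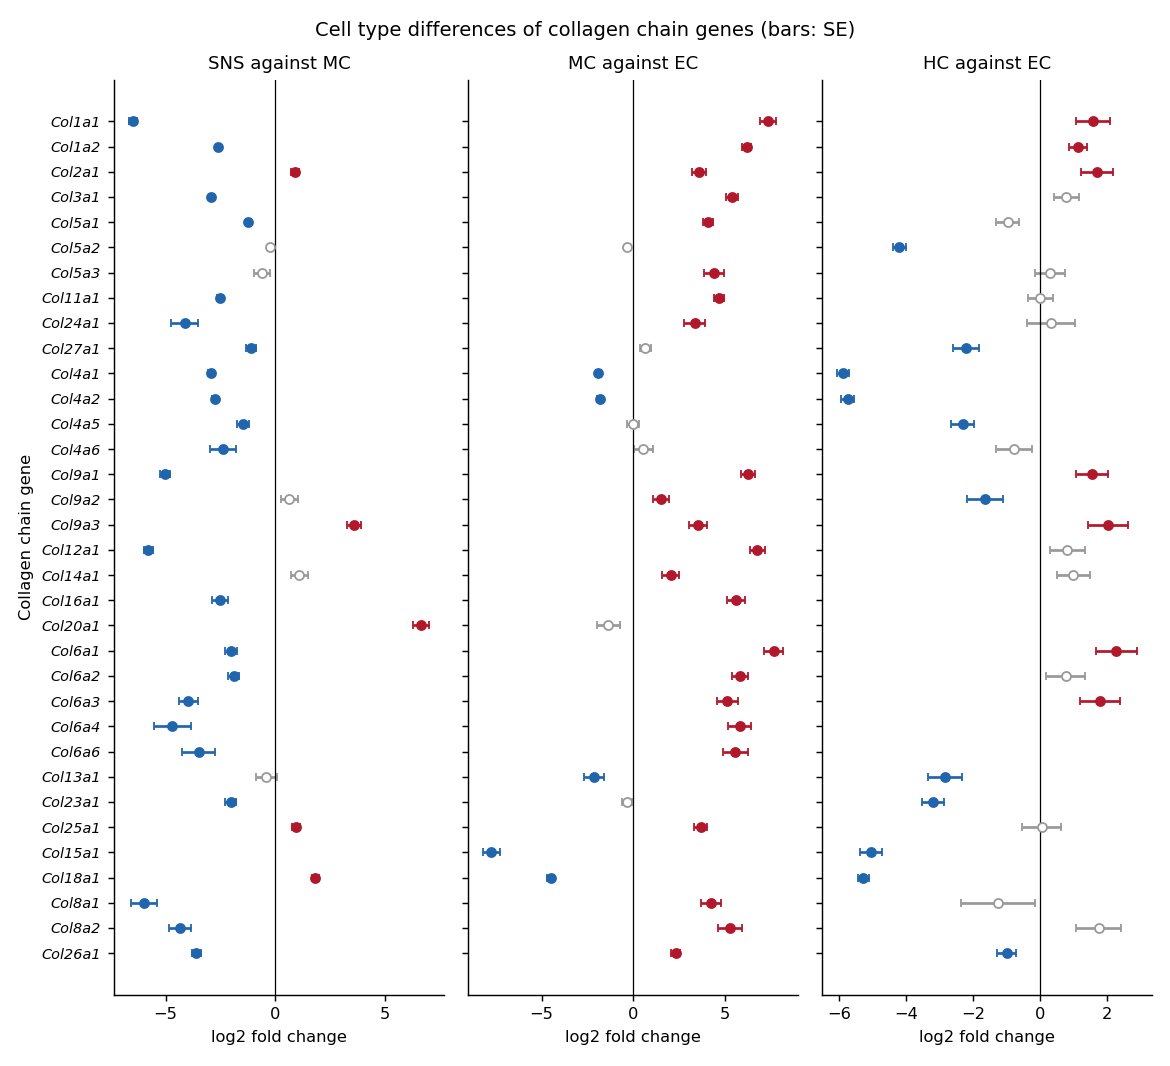
Log2 fold change (x axis, bars SE) of SNS cells against MCs, MCs against ECs and HCs against ECs for the 34 collagen chain genes called in at least 1 of these contrasts (y axis). Filled points are called (red higher, blue lower) and open points are tested and not called. Most chains are lower in SNS cells than in MCs and higher in MCs than in ECs, Col9a3 and Col20a1 are higher in SNS cells, and Col4a1, Col4a2, Col15a1 and Col18a1 lie far below 0 in HCs.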

How the data were processed

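RNA of 160 pools of 20 sorted cells was sequenced by Smart-seq2, single-end and without molecular identifiers, by the authors. The deposited table holds counts per gene as made by HTSeq, not normalized. The methods name STAR as the aligner while the submitters' processing notes name GSNAP, HTSeq 0.5.3p3 and mm10, and the strand setting is not given in the sources used here.

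Pools were kept with over 500000 reads, over 20% of reads on genes, and under 20% mitochondrial and under 20% ERCC reads. This removed 7 pools, and 12 more were left out where the counts of Ngfr and Pdgfrb went against the label. Of all reads in the pools used, 7.93% to 20.4% had no feature and 4.62% to 19.8% were ambiguous, and these stayed out of library sizes. No 2 pools were identical. Gene IDs were matched to GENCODE M21 (45143 of 46078).

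The quasi-likelihood test of edgeR 4.0.16 (TMM, robust, R 4.3.3) was run on genes that reached 10 counts in 5 or more pools, with Benjamini-Hochberg adjustment over all genes tested and calls below an adjusted p of 0.01 with a difference of over 0.1 on the log2 scale. The contrast of HCs with ECs and its interaction used the E10.5 populations, that of SNS cells with MCs and its interaction the E11.5 populations, and that of MCs with ECs all 8. The standard error is the log2 fold change divided by the square root of F. The fits were also run on simulated counts drawn independently for each pool. Such counts hold no replicates shared by pools, so they do not test that part of the design. Alternatives were ERCC or DESeq2 1.42.0 size factors, no TMM, other filters, all pools, a joint fit, DESeq2 and scanpy 1.11.5.

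Named were all chains that the text describes by class or call and, of each list of handling genes, up to 3 rises and 3 falls that reached 10 counts in 75% of pools where they were higher. Mmp8 in HCs and Ddr2 in SNS cells were named after their values were seen. The chains and lists were chosen with earlier results of these data known.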

Additional observations from a re-analysis of the deposited data

Results flagged for a closer look

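In 15 cases the Gata3-GFP difference of a collagen chain differed between 2 cell types by the interaction test in edgeR. These were 5 of 32 chains tested between HCs and ECs, where 22.7% of all genes had such a difference, and 10 of 35 between SNS cells and MCs, where 10.4% did. Between HCs and ECs the interaction on the log2 scale was 2.85 for Col5a1, 3.48 for Col13a1 and 1.49 for Col18a1, higher in HCs, and -5.72 for Col8a1 and -3.37 for Col9a1, higher in ECs. Between SNS cells and MCs it was lower in SNS cells for 10 chains, at -2.97 for Col1a1, -2.03 for Col1a2, -1.75 for Col3a1, -2.78 for Col4a1, -2.57 for Col4a2 and -0.94 for Col5a1. It was -4.39 for Col8a1, -2.11 for Col12a1, -3.86 for Col25a1 and -2.37 for Col26a1. Col8a1 did not pass the filter within HCs or SNS cells, nor did Col13a1 within HCs. Their interactions thus set a tested cell type against an untested one. With the pools against their label kept, Col1a1, Col3a1, Col8a1, Col12a1 and Col26a1 were not called. Of 11 mesenchymal markers, 7 were lower in Gata3-GFP+ SNS cells (10 tested), and 1 was higher and 3 lower in Gata3-GFP+ MCs, and their part in these interactions was not tested.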

How the results depend on the processing

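No paired analysis was possible because the columns carry no replicate number. With the pools against their label kept, MCs had 3 chains higher and 1 lower, SNS cells 2 lower, SNS cells against MCs 3 higher, and the interaction at E11.5 2 higher and 5 lower. With all pools of the series these counts were 4 and 1, 2, 3, and 2 and 5. Keeping the pools against their label moved mean SNS levels, Gata3-GFP+ first, to 136.7 and 218.9 CPM for Col1a1, 181.6 and 388 for Col1a2, 222.4 and 392.6 for Col3a1, 48.97 and 101.1 for Col4a1, and 43.4 and 99.6 for Col4a2. Col1a1 in Gata3-GFP- MCs moved to 633.9 CPM, and the collagen shares to 0.561% in Gata3-GFP+ MCs and 0.136% and 0.211% in SNS cells. The fit of all 8 populations gave 3 higher and 1 lower in MCs. It gave 23 higher in ECs in place of 16, 17 higher in HCs in place of 15, and 9 lower in SNS cells in place of 10.

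Under ERCC scaling, 2 chains were lower in ECs, 2 higher in SNS cells, 8 higher in SNS cells against MCs, 5 higher and 1 lower in the interaction at E10.5 and 1 higher in that at E11.5. With 10 counts required in 20 pools, 7 chains were higher in ECs in place of 16, since fewer genes were tested. There were 19 Gata3-GFP+ EC pools, so a chain with 10 counts in that population alone could not pass this filter in ECs. The same filter gave 4 higher in HCs against ECs and 1 lower in the interaction at E10.5. Without a filter 2 chains were lower in ECs and 1 higher in the interaction at E11.5. At an adjusted p under 0.05 with no limit on the fold, 2 chains were lower in ECs, 2 higher in SNS cells, 5 higher and 8 lower in the interaction at E10.5 and 1 higher in that at E11.5. DESeq2 gave 3 higher in HCs against ECs, and scanpy 2 lower in ECs. In 4 cases the direction changed, with no call under the alternative: Col18a1 was at -0.092 in MCs with scanpy and at 0.42 in SNS cells with ERCC scaling, and the E11.5 interaction of Col26a1 was at 0.11 with the pools against their label kept and at 0.11 with all pools. Apart from the construction of these alternatives, the cause was not tested. DESeq2 size factors and library totals without TMM changed no call.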
